A study of Mus musculus with 11 samples.

Results

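The 6 pancreas arrays of caerulein-treated mice were compared with each other, replicates 1, 2 and 3 (arrays 1 to 3) against replicates 4, 5 and 6 (arrays 4 to 6), with 5 NaCl arrays as the baseline. They are 6 of the 11 samples of the series. The grouping follows the replicate number alone and was adopted after a division of the arrays into these sets had been seen, so every difference between the sets is given as a description, with no test. Nothing in the labels says what sets the arrays apart, and the cause is unknown. All 11 samples are total RNA of whole pancreas from wildtype C57Bl6J mice, with no transgene or mutant allele named. The caerulein group had received 9 hourly intraperitoneal injections, at a dose given in the record as 50 mg/kg (the unit may be a misprint and could not be checked), and the NaCl group sodium chloride. The series text counts 4 control mice where the titles name 5 control samples. The sources used here give no age, sex, time of collection, pooling of animals, array batch or scan date.

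Caerulein is a peptide that acts on the cholecystokinin receptor of acinar cells, the enzyme-secreting cells of the exocrine pancreas, and overstimulation injures them from within. Injured acini mount stress programmes (heat shock, unfolded protein and oxidative stress responses), secrete acute-response lectins of the Reg family, and draw in monocytes and neutrophils. Periacinar stellate cells and fibroblasts then lay down matrix.

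The values are log2 expression on Affymetrix arrays, 1 probe set for each of 19938 genes. The digestive enzyme genes Prss2 (trypsinogen), Cpa1 (carboxypeptidase) and Cel (lipase) lay between 14.06 and 14.69 on all 11 arrays, so all of the samples read as pancreas. Caerulein against NaCl gave 4051 genes higher (20.3% of those tested) and 6839 lower (34.3%; limma, adjusted p under 0.05), a balance that depended on the scaling. Each of the sets was also compared with the 5 NaCl arrays alone. Arrays 1 to 3 gave 3497 genes higher (17.5%) and 4407 lower (22.1%), and arrays 4 to 6 gave 3838 (19.2%) and 4891 (24.5%). These fits share the NaCl arrays and are therefore not independent of each other. Whether 1 sample equals 1 mouse is not stated in the labels, so a p-value here measures the sample-to-sample spread, which may be technical.

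The overall size of the response to caerulein overlapped between the sets. Over the 1224 genes raised at least 2-fold by caerulein, the median rise on a single array was 1.48, 1.38 and 1.37 (log2) on arrays 1, 2 and 3 and 1.38, 1.48 and 1.48 on arrays 4, 5 and 6. Over the 287 genes lowered at least 2-fold, the median fall ran from -1.46 to -1.33 on arrays 1 to 3 and from -1.36 to -1.25 on arrays 4 to 6. The values of the sets overlapped in both cases. Across all genes the difference between the sets and the caerulein difference had a Pearson r of -0.041 and a Spearman rho of -0.014, a description across genes, which are not independent replicates and share the caerulein arrays.

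The division itself was the leading direction of variation among the caerulein arrays. The first principal component held 36.1% of their variance, with scores of 16.2, 9.7 and 11.6 on arrays 1, 2 and 3 and -12.2, -11.0 and -14.3 on arrays 4, 5 and 6. The second held 22.1% and set array 1 apart (17.6, against -12.1 to 4.7 on the other 5). Correlations between arrays over all genes were 0.9899 to 0.9935 within the sets and 0.9868 to 0.9905 between them. The split held 35.6% of the sum of squares among these arrays. As the sets were chosen after the division was seen in these same arrays, these values describe the choice and give it no support.

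**Figure D1:**
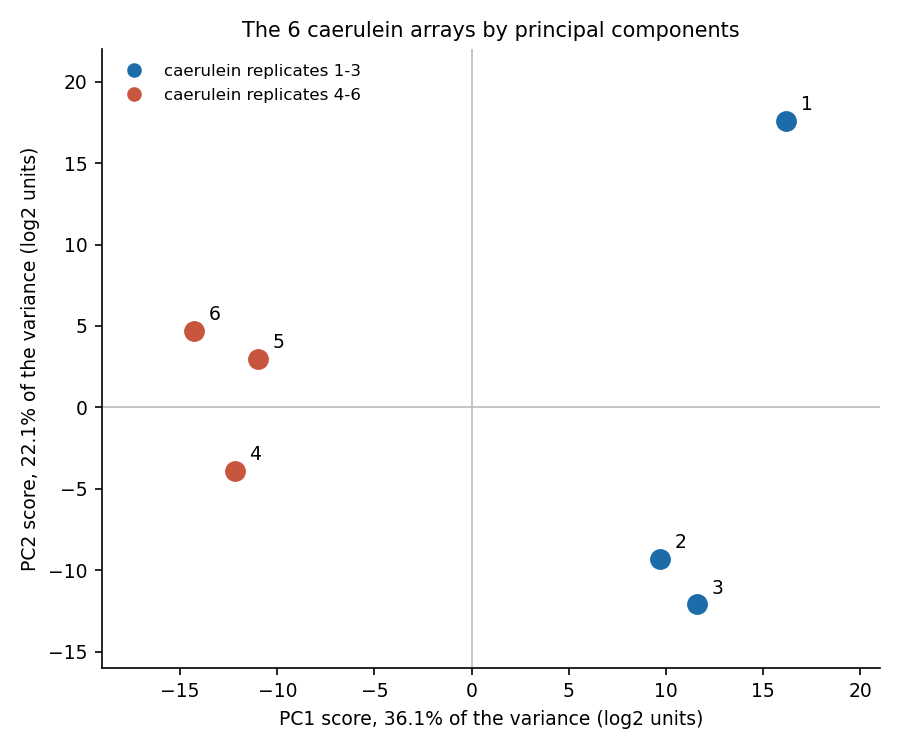
Scores of the 6 caerulein arrays on the first (x axis, 36.1% of the variance) and second (y axis, 22.1%) principal components of log2 expression over all genes, with the replicate number beside each point. Arrays 1 to 3 (blue) lie right of 0 and arrays 4 to 6 (red) left of it, and array 1 stands apart on the second component.

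A gene was counted where the 3 values of one set did not overlap the 3 values of the other and the means differed by at least 0.5 on the log2 scale. This gave 95 genes higher on arrays 1 to 3 (0.476% of 19938) and 184 higher on arrays 4 to 6 (0.923%), together 279 (1.4%). Since the sets were chosen on these arrays, nothing is read from these shares. Without the least difference, 1652 genes (8.29%) and 1875 genes (9.4%) did not overlap. Every list count below is to be set against these shares of all genes. A difference of at least 1 was reached by 8 genes (0.0401%) and 19 genes (0.0953%). The genes nearest the limit were Prkab2 at 0.5007 and Pgm3 at -0.5009 inside it, and 1700025G04Rik at 0.4986 and Lrrc40 at -0.4994 outside it. The balance depended on the scaling: with each array shifted to an equal mean of commonly used reference genes, 171 genes were counted as higher on arrays 1 to 3 and 104 on arrays 4 to 6. That list's mean level was 9.15 to 9.21 on arrays 1 to 3 and 9.24 to 9.33 on arrays 4 to 6, and the shift moved the median difference of all genes from 0.00 to 0.09.

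The counted genes were placed against the range of the 5 NaCl arrays, where the choice of a higher set by itself bars some placements. Among all genes, 16.7% lay above NaCl in both sets, 1.83% above it on arrays 1 to 3 with arrays 4 to 6 overlapping, 3.17% the reverse, 42.1% overlapped in both and 20.6% lay below in both. Of the 95 genes higher on arrays 1 to 3, 45 lay above all NaCl arrays in both sets, 11 only on arrays 1 to 3, with arrays 4 to 6 overlapping NaCl, and 20 had arrays 1 to 3 overlapping NaCl and arrays 4 to 6 below it. Of the other 19, 12 overlapped NaCl in both sets, 6 lay below NaCl in both and 1 lay above NaCl on arrays 1 to 3 and below it on arrays 4 to 6. Of the 184 genes higher on arrays 4 to 6, 79 lay above NaCl in both sets and 51 overlapped NaCl on arrays 1 to 3 and lay above it on arrays 4 to 6. A further 22 lay below NaCl on arrays 1 to 3 and overlapped it on arrays 4 to 6, 13 lay below in both sets, 12 overlapped in both, and 7 lay below NaCl on arrays 1 to 3 and above it on arrays 4 to 6. The set with the higher level was farther from the NaCl mean for 62 of the 95 genes (65.3%) and 140 of the 184 (76.1%). Among all genes, which were not selected for a higher set, arrays 1 to 3 were farther for 47.9% and arrays 4 to 6 for 52.1%. A gene above NaCl in both sets is farther from it in the higher set by construction, so nothing is read from these shares.

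**Figure D2:**
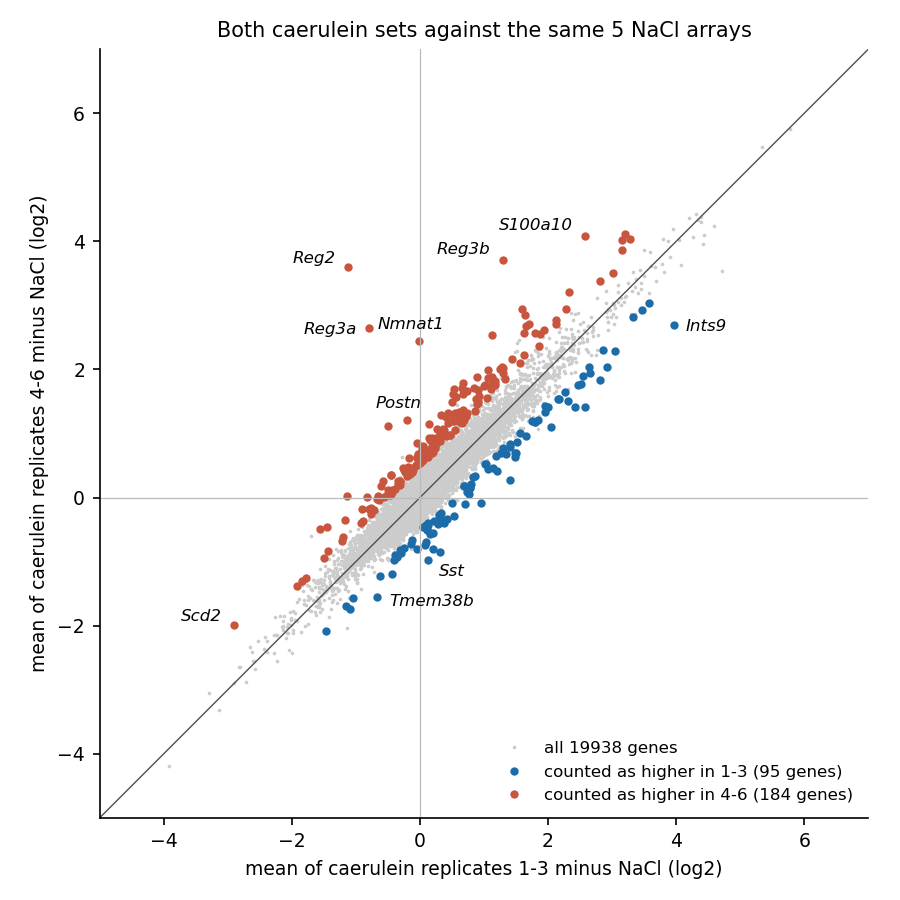
Mean difference from the 5 NaCl arrays (log2) for caerulein arrays 1 to 3 (x axis) and 4 to 6 (y axis), 1 point per gene, with the line of equal response. The 95 genes counted as higher on arrays 1 to 3 are blue and the 184 counted as higher on arrays 4 to 6 red; both axes use the same NaCl arrays. Reg2 and Reg3a lie farthest from the line, with means below NaCl on the x axis and above it on the y axis.

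The largest differences of the whole comparison belonged to the Reg family, secreted C-type lectins of acinar cells and gut epithelium that were first described in the regenerating pancreas. Of the 7 Reg genes measured, 5 were counted as higher on arrays 4 to 6 (Reg2, Reg3a, Reg3b, Reg3d and Reg3g), Reg1 did not overlap but differed by less than the limit, and Reg4 overlapped. RefSeq places all but Reg4, which is on chromosome 3, side by side on chromosome 6 in the order Reg3b, Reg3d, Reg3a, Reg2, Reg1, Gm52853 and Reg3g. Promoters of the 5 counted genes, from 250 bases before to 50 bases after the annotated start, are shown because these neighbours differed in the same direction (RefSeq sequences, build GRCm38.p6). Capitals mark the TATA box letters TATAAA and the letters TTCNNNGAA, the form bound by STAT factors, searched on both strands.
Reg2, chr6:78404905-78405204, plus strand: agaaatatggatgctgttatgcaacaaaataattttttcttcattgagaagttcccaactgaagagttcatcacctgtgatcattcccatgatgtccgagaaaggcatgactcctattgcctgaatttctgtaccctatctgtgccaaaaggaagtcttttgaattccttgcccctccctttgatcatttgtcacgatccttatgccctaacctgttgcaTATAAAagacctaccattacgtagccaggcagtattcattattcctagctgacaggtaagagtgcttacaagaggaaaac
Reg3a, chr6:78380459-78380758, plus strand: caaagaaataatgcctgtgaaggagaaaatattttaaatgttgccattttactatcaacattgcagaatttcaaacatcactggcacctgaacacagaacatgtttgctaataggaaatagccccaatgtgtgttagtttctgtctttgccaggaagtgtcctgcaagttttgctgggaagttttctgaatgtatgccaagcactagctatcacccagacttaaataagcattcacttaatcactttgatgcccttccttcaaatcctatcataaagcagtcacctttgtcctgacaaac
Reg3b, chr6:78370635-78370934, plus strand: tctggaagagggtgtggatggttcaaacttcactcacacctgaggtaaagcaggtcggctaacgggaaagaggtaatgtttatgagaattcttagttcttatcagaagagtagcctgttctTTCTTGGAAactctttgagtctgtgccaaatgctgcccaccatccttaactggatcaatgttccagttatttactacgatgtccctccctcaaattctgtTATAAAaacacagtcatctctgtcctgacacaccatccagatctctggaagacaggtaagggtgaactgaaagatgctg
Reg3d, chr6:78378816-78379115, minus strand: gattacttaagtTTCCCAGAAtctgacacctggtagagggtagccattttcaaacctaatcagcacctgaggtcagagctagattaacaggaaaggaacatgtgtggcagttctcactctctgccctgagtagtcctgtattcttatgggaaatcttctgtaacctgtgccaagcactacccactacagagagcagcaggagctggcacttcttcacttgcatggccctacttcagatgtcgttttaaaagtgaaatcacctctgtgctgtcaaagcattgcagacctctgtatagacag
Reg3g, chr6:78468825-78469124, minus strand: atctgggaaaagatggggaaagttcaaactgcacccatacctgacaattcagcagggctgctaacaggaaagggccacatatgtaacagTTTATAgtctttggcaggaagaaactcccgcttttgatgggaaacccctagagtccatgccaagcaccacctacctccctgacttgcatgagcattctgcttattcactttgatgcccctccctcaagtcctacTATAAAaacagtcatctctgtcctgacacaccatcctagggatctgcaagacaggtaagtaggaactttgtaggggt
TATAAA stood at -30 to -25 from the start in Reg2, -29 to -24 in Reg3b and -27 to -22 in Reg3g, which also held it on the other strand at -161 to -156. Reg3a held none of these letters. TTCNNNGAA was found in Reg3b at -129 to -121 and in Reg3d at -238 to -230. Of all 32851 RefSeq promoter windows of this length, 13.6% hold TATAAA on either strand and 8.3% hold TTCNNNGAA, so a match is a description of the letters and no more.

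Reg2, an acinar and islet growth-associated lectin, read 8.04, 6.45 and 7.24 on arrays 1, 2 and 3 and 12.38, 12.41 and 11.10 on arrays 4, 5 and 6. The NaCl arrays read 8.10, 8.56, 9.38, 7.30 and 8.46. Arrays 4 to 6 thus lay above every NaCl array, whereas arrays 1 to 3 overlapped NaCl or lay below it, and the sets differed by 26.4-fold in their means (7.24 ± 0.80 and 11.96 ± 0.75, SD, n = 3 each). Reg3a read 5.38, 5.10 and 5.17 on arrays 1, 2 and 3, all below the lowest NaCl array (5.43), and 8.99, 9.70 and 7.28 on arrays 4, 5 and 6, all above the highest (6.71). The difference was 10.9-fold.

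Reg3b, the pancreatitis-associated protein, was above NaCl in both sets. It read 7.85, 7.84 and 7.96 on arrays 1, 2 and 3, 10.47, 11.28 and 9.13 on arrays 4, 5 and 6, and 6.24 to 7.11 in NaCl, so that its mean lay 1.29 above NaCl (log2) in one set and 3.70 above it in the other. Reg3g, a lectin that binds gram-positive bacteria, read 4.67, 4.44 and 4.79 on arrays 1, 2 and 3, below the NaCl range of 4.86 to 5.35, and 6.28, 6.91 and 5.54 on arrays 4, 5 and 6, above it. Reg3d was lower than NaCl on arrays 1 to 3 (10.11, 9.59 and 9.92, against 11.07 to 11.84) and overlapped NaCl on arrays 4 to 6 (11.16, 10.92 and 10.73). Reg1 had the same form on a smaller scale: 13.46 to 13.68 on arrays 1 to 3, 13.85 to 13.90 on arrays 4 to 6 and 13.79 to 14.07 in NaCl. Reg4 was dim throughout (3.68 to 4.44 on all arrays) and differed by -0.07.

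The order of arrays within the groups was shared by several Reg genes. In NaCl, replicate 4 was the lowest array for Reg1 (13.79), Reg2 (7.30), Reg3a (5.43), Reg3b (6.24), Reg3d (11.07) and Reg3g (4.86). Among arrays 4 to 6, array 6 was the lowest for the same 6 genes, and array 2 was the lowest of arrays 1 to 3 for them. The test of caerulein against NaCl over all 6 arrays called Reg3b higher (2.50, SE 0.58, limma adjusted p = 0.00404) and Reg3d lower (-1.03, SE 0.26, limma adjusted p = 0.00734), but did not call Reg2 (1.24, SE 1.06, limma adjusted p = 0.362), Reg3a (limma adjusted p = 0.37) or Reg3g (limma adjusted p = 0.54). The Reg3 sequences resemble each other, and cross-hybridisation between their probes was not tested.

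**Figure D3:**
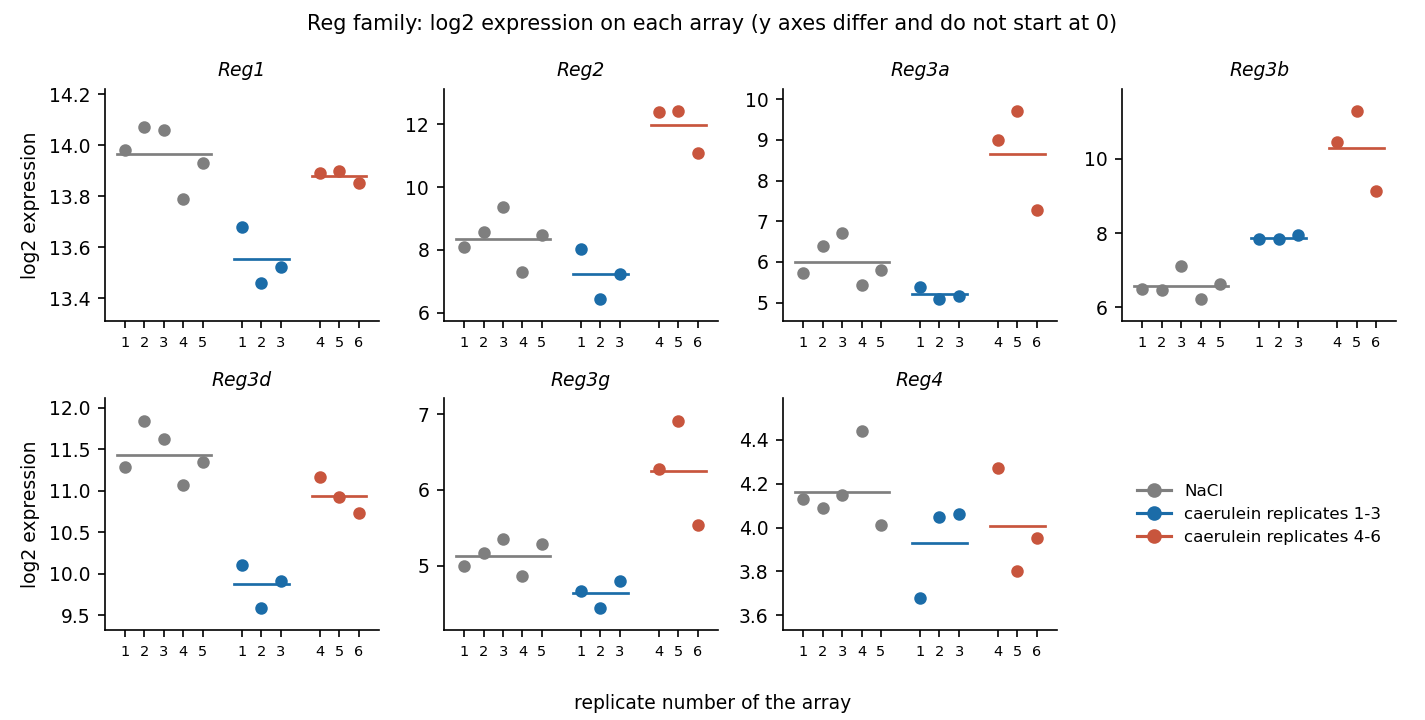
Log2 expression of the 7 Reg genes on each array (y axes, each with its own range), by replicate number (x axis), with lines at the group means: NaCl in grey, caerulein arrays 1 to 3 in blue and 4 to 6 in red. Reg2, Reg3a and Reg3g lie above NaCl on arrays 4 to 6 alone, and Reg4 overlaps in all groups.

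Signals that act through STAT3 are known to induce Reg genes in acinar cells. Of 16 genes measured in a list of STAT3 and its receptors and targets, 0 were counted as higher on arrays 1 to 3 and 1 on arrays 4 to 6. In these directions 4 and 2 did not overlap (25.0% and 12.5%, against 8.29% and 9.4% of all genes). The list median difference was -0.00, which turned to 0.09 with an equal mean of the reference genes. Stat3 itself read 8.33 to 8.52 on arrays 1 to 3 and 8.33 to 8.44 on arrays 4 to 6. Socs3, its feedback inhibitor, read 7.91 to 8.11 over all 6 arrays. Both were above NaCl (limma adjusted p = 6.4e-09 and 1.8e-06) and did not separate the sets. The counted gene was Socs2, an inhibitor of growth hormone signalling, with 7.34, 7.20 and 7.69 on arrays 1, 2 and 3 and 8.14, 8.65 and 8.24 on arrays 4, 5 and 6. These are RNA levels, the activity of the STAT3 protein was not measured, and its part in the Reg differences was not tested.

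Nmnat1, which encodes the nuclear enzyme that makes NAD from nicotinamide mononucleotide, had the largest difference outside the Reg family. It read 5.85, 6.04 and 6.02 on arrays 1, 2 and 3, within the NaCl values of 5.74, 6.52, 5.89, 6.05 and 5.69, and 8.35, 8.53 and 8.37 on arrays 4, 5 and 6. The difference was 5.46-fold, with SDs of 0.11 and 0.10 (n = 3 each). The 6-array test against NaCl did not pass (1.22, SE 0.53, limma adjusted p = 0.0796). Postn, Cth, Psmd5 and C1qb, described with their groups, had the same form, with arrays 1 to 3 overlapping NaCl or below it and arrays 4 to 6 above it.

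Single genes of the oxidative stress response were higher on arrays 4 to 6. Nrf2 is the transcription factor that induces glutathione and thioredoxin enzymes when electrophiles accumulate. Of 19 measured targets, 4 were counted as higher on arrays 4 to 6 (Slc7a11, Srxn1, Pgd and Txnrd1) and 0 on arrays 1 to 3. Of all genes, 0.923% and 0.476% were so counted. The list median difference was -0.27, against 0.00 for all genes. Slc7a11, the cystine importer that feeds glutathione synthesis, read 8.76, 8.90 and 8.33 on arrays 1, 2 and 3 and 9.85, 9.19 and 10.56 on arrays 4, 5 and 6, with 6.46 to 7.46 in NaCl. Srxn1, sulfiredoxin, read 9.41, 9.57 and 9.58, then 10.28, 9.75 and 10.82, with 6.04 to 6.56 in NaCl. Array 6 was the highest and array 5 the lowest of their set for both, and the same order was seen for Pgd (8.99, 8.60 and 9.25 on arrays 4, 5 and 6) and Txnrd1 (9.55, 9.11 and 10.05).

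Sqstm1, Gstp1, Idh1 and Gclm, chosen after their values were seen, had that order as well. Sqstm1, an autophagy receptor, read 11.48, 11.95 and 11.61 on arrays 1, 2 and 3 and 12.61, 12.31 and 12.75 on arrays 4, 5 and 6. Gstp1, a glutathione transferase, was below the NaCl range of 11.12 to 11.50 on arrays 1 to 3 (9.97, 9.96 and 9.58), and read 10.91, 10.27 and 11.33 on arrays 4, 5 and 6. Idh1 differed by -0.89 and the target Gclm, the regulatory subunit of glutamate-cysteine ligase, by -0.38, the latter with overlap between the sets. Its catalytic partner Gclc, raised 4.20 by caerulein on arrays 1 to 3 and 4.37 on arrays 4 to 6, differed by only -0.16 and also overlapped. Nqo1, a classical target, overlapped too (3.95, 4.19 and 4.06, then 4.93, 3.94 and 5.20). The difference was thus uneven across the list.

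Single targets of ATF4, the factor that is translated under amino acid shortage and endoplasmic reticulum stress, were also higher there. Of 23 measured, 5 were counted as higher on arrays 4 to 6 (Slc7a11, Gadd45a, Cth, Cebpb and Trib3). In that direction 10 did not overlap (43.5%, against 9.4% of all genes) and 0 in the other, and the list median difference was -0.23. Gadd45a, a growth arrest gene, read 7.15, 7.02 and 6.67 on arrays 1, 2 and 3 and 8.02, 7.86 and 7.74 on arrays 4, 5 and 6. Cth, which makes cysteine from cystathionine, read 8.34, 8.73 and 8.31 on arrays 1, 2 and 3, within the NaCl range of 8.16 to 8.80, and 9.22, 9.34 and 9.51 on arrays 4, 5 and 6. Trib3, an inhibitor of this response, read 9.03, 9.27 and 8.89, then 9.46, 9.76 and 9.75, all far above NaCl (6.73 to 7.25). Array medians over the list relative to NaCl were 1.12, 1.27 and 0.95 on arrays 1, 2 and 3 and 1.13, 1.24 and 1.32 on arrays 4, 5 and 6, which overlapped.

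Chaperones and sensors of the endoplasmic reticulum had smaller differences. Of 31 measured, 2 were counted as higher on arrays 4 to 6. In that direction 13 did not overlap (41.9%, against 9.4% of all genes) and 1 in the other, with a list median of -0.12. With an equal mean of the reference genes 1 was counted, 9 and 2 did not overlap, and the median was -0.02. Ero1a, an oxidase for disulfide formation, read 8.08, 8.21 and 8.03 on arrays 1, 2 and 3 and 9.02, 8.79 and 8.90 on arrays 4, 5 and 6. Ern1, the stress sensor IRE1, read 8.12, 8.45 and 8.08, then 8.69, 8.96 and 8.78. Of the metabolic genes, the glucose transporter Slc2a1 was higher on arrays 4 to 6 (9.68, 9.75 and 9.70) than on arrays 1 to 3 (8.60, 8.75 and 8.67), with SDs of 0.03 and 0.08 (n = 3 each). It was the 1 counted gene of 21 measured in a glycolysis list, where 1.4% of all genes were counted. The amino acid transporter Slc38a1 (-0.92) and the desaturase Fads2 (-0.84), both chosen after their values were seen, the desaturase Scd2 (-0.91) and the acyl-CoA thioesterase Acot2 (-0.94) also stood higher there. Scd2 was below NaCl in both sets, at 5.88, 5.89 and 6.42 on arrays 1, 2 and 3 and 6.89, 7.42 and 6.61 on arrays 4, 5 and 6, against 8.77 to 9.23. Of 18 sterol synthesis genes 0 were counted. With arrays 4 to 6 higher 7 did not overlap (38.9%, against 9.4% of all genes) and 0 the other way (median -0.16). With an equal mean of the reference genes 1 did not overlap (median -0.06).

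Interferon-stimulated genes formed the list with the most negative median after the Reg family. Of 30 measured, 6 were counted as higher on arrays 4 to 6 (Irf7, Rtp4, Trim30a, Ifit1, Iigp1 and Ifitm3). In that direction 16 did not overlap (53.3%, against 9.4% of all genes) and 0 in the other, and the list median difference was -0.34. Many are dim on this array: of the 9 with a mean of at least 6, 1 was counted and 5 did not overlap, also with a median of -0.34. Irf7, the factor that amplifies interferon production, read 6.14, 5.65 and 5.90 on arrays 1, 2 and 3, overlapping NaCl (5.27 to 5.81), and 6.28, 7.18 and 6.60 on arrays 4, 5 and 6. Rtp4, which restrains RNA virus replication, read 5.41, 5.16 and 5.23, then 5.51, 6.08 and 6.31. Ifitm3, a membrane restriction factor, read 9.75, 9.45 and 9.64, then 9.98, 10.05 and 10.31. Array 4 was the lowest of its set for all 3, and the list medians relative to NaCl were 0.35, 0.51 and 0.60 on arrays 4, 5 and 6 and 0.29, 0.04 and 0.18 on arrays 1, 2 and 3.

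Slfn4 and Ifitm6, relatives of interferon-induced genes, had larger differences than any list member. The myeloid schlafen Slfn4 read 6.88, 6.24 and 6.13 on arrays 1, 2 and 3 and 7.50, 7.76 and 8.24 on arrays 4, 5 and 6. A myeloid relative of Ifitm3, Ifitm6, read 4.64, 4.37 and 4.50, then 5.52, 5.18 and 6.11. Promoters of 3 counted genes from the groups that set the arrays apart are shown with the letters known for the matching factors in capitals (RefSeq, build GRCm38.p6). These are the core of the interferon-stimulated response element in Ifit1 and TGACNNNGC, a form of the antioxidant response element core, in Srxn1. In Hspa1a, which is described further on, they are GAANNTTC, part of the heat shock element.
Ifit1, chr19:34640639-34640938, plus strand: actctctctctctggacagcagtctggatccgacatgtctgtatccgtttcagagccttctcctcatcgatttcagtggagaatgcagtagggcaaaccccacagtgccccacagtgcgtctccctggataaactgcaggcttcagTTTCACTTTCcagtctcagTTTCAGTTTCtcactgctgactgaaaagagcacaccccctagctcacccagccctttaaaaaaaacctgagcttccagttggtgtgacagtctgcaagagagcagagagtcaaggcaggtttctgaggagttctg
Srxn1, chr2:152105274-152105573, plus strand: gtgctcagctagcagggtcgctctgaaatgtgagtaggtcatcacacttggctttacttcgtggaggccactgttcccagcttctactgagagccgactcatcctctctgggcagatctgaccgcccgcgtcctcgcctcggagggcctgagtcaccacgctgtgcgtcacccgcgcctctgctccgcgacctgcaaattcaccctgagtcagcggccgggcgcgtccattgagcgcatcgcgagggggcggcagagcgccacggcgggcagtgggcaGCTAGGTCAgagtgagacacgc
Hspa1a, chr17:34972107-34972406, minus strand: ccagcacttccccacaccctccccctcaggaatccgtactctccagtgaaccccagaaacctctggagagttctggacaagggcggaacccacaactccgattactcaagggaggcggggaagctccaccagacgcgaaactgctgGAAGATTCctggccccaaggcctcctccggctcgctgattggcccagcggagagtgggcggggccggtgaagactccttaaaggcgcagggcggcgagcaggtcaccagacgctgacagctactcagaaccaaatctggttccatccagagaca
Ifit1 held its motif at -104 to -95 and at -85 to -76, Srxn1 at 29 to 37 and Hspa1a at -104 to -97. Of all promoter windows 3.44% hold the interferon-stimulated core, 12.4% TGACNNNGC and 7.86% GAANNTTC, on either strand. Other forms of these elements were not searched, and these letters do not show that a factor was bound.

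Of 23 monocyte and macrophage markers, 4 were counted as higher on arrays 4 to 6 (C1qb, Cd68, Fcgr1 and Lyz1) and 0 the other way. The other 19 overlapped between the sets, and the list median was -0.21. The 4 were 17.4% of the list, where 9.4% of all genes did not overlap in that direction. With an equal mean of the reference genes 1 was counted, and 1 after a repeated quantile normalisation. The array medians relative to NaCl overlapped, at 0.42, 0.17 and 0.16 on arrays 1, 2 and 3 and 0.51, 0.27 and 0.67 on arrays 4, 5 and 6. Fcgr1, the high-affinity IgG receptor of macrophages, read 6.62, 6.25 and 6.49 on arrays 1, 2 and 3 and 6.76, 7.11 and 7.16 on arrays 4, 5 and 6. Cd68, a lysosomal glycoprotein of macrophages, differed by -0.53, and its mean was above NaCl by 1.33 and 1.86 (log2). C1qb, a chain of complement C1q, read 5.95, 5.93 and 6.01, then 6.56, 6.42 and 6.92, against 5.89 to 6.24 in NaCl. Other myeloid genes, chosen after their values were seen, had the same form: Ms4a6c differed by -0.94, Ms4a4c by -0.87, Mpeg1 by -0.75 and Cybb by -0.69, beside Ms4a6b, which the naming rule gave, at -1.12. In whole tissue, more cells of a type and more RNA per cell cannot be told apart.

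Of 19 neutrophil markers 0 were counted in either direction, 15 had the higher mean on arrays 4 to 6, and the list median was -0.12. The array medians relative to NaCl were 0.14, -0.22 and 0.51 on arrays 4, 5 and 6 and 0.09, -0.10 and -0.04 on arrays 1, 2 and 3. Chil3, a chitinase-like lectin, had the largest difference, -0.89, with overlap. The calprotectin subunits differed by 0.15 (S100a8) and -0.42 (S100a9), and Ly6g by -0.05. Markers of T and natural killer cells (0 counted of 21, median -0.01, or 0.08 with an equal mean of the reference genes) and of B and plasma cells (0 of 18, median 0.02) held no counted gene. As 1.4% of all genes were counted, nothing is read from 0 in lists of this size. The part of the myeloid markers in the interferon-stimulated differences was not tested.

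Several matrix and fibroblast genes were higher on arrays 4 to 6. Of 24 fibroblast and stellate markers, 6 were counted (Postn, Mfap5, Dpt, Sparc, Vim and Col14a1), where 0.923% of all genes were. In that direction 14 did not overlap (58.3%, against 9.4% of all genes) and 0 in the other. The list median was -0.23, with overlapping array medians relative to NaCl (-0.24, -0.08 and -0.20, then -0.04, -0.17 and 0.04). Of 23 matrix and wound genes, 5 were counted (Col3a1, Col1a2, Tnc, Timp1 and Col1a1), with a median of -0.22. Postn, periostin, a matrix protein of activated fibroblasts, read 4.37, 4.37 and 4.56 on arrays 1, 2 and 3, overlapping NaCl (4.47 to 4.79), and 6.08, 5.62 and 5.82 on arrays 4, 5 and 6, a difference of 2.66-fold. Col3a1 read 7.45, 7.67 and 7.58, then 8.48, 8.22 and 8.56, with 6.89 to 7.39 in NaCl.

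Col1a2 lay on either side of NaCl (7.56 to 7.99), with 7.21, 7.53 and 7.37 on arrays 1, 2 and 3 and 8.16, 8.06 and 8.31 on arrays 4, 5 and 6. Col1a1 did the same (7.34, 7.50 and 7.46, then 8.05, 7.79 and 8.06, with 7.56 to 7.75 in NaCl). Collagen I, the main fibrillar collagen, was thus not called for caerulein against NaCl over all 6 arrays (limma adjusted p = 0.847 for Col1a2 and 0.684 for Col1a1). Timp1, an inhibitor of matrix proteases, was above NaCl in both sets (7.77, 7.16 and 7.33, then 8.20, 7.83 and 8.24). The stromal markers Dcn (-0.11) and Des (0.03) differed little. With an equal mean of the reference genes, 4 of the 24 and 3 of the 23 were counted as higher on arrays 4 to 6 and 0 and 1 the other way.

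Of 28 cytoskeleton and membrane genes measured, 5 were counted as higher on arrays 4 to 6 (S100a10, S100a6, Anxa1, Anxa3 and Vim) and 0 the other way. The shares of all genes so counted were 0.923% and 0.476%. S100a10, the partner of annexin A2 at the membrane, read 9.22, 8.92 and 9.16 on arrays 1, 2 and 3, 10.58, 10.64 and 10.61 on arrays 4, 5 and 6, and 6.31 to 6.72 in NaCl, a fold over NaCl of 5.98 and 17.0. S100a6 read 6.45, 6.13 and 5.52, then 6.88, 7.18 and 7.02. Anxa1, annexin A1, read 6.38, 5.96 and 5.82, then 6.85, 6.73 and 7.45. Anxa2 (-0.24), Anxa5 (-0.10) and S100a11 (-0.25), of the same families, were not counted. The list median of -0.09 turned to 0.01 with an equal mean of the reference genes. Further single genes with more than a 2-fold difference were Mboat1, a lysophospholipid acyltransferase (8.71, 8.46 and 8.15 on arrays 4, 5 and 6, against 7.02 to 7.19), and Fyn, a Src family kinase (7.46 to 7.85, against 6.45 to 6.54). Fam13a was at NaCl level on arrays 4 to 6 (5.88 to 6.30, NaCl 5.81 to 6.40) and lower on arrays 1 to 3 (4.82 to 5.06).

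On the other side of the division, single heat shock genes were higher on arrays 1 to 3. The family encodes the cytosolic chaperones induced by HSF1 when proteins unfold. Of 19 measured, 3 were counted as higher on arrays 1 to 3 (Dnajb1, Hspa1a and Cryab). In that direction 8 did not overlap (42.1%, against 8.29% of all genes) and 0 in the other, and the list median difference was 0.22. The array medians relative to NaCl overlapped, at 1.48, 1.51 and 1.47 on arrays 1, 2 and 3 and 1.34, 1.07 and 1.51 on arrays 4, 5 and 6. Dnajb1, the HSP40 co-chaperone, read 8.47, 8.23 and 8.47 on arrays 1, 2 and 3 and 7.27, 7.28 and 7.59 on arrays 4, 5 and 6, with 6.33, 5.87, 5.78, 5.92 and 5.93 in NaCl. It was 5.37-fold over NaCl in one set and 2.67-fold in the other. Hspa1a, an inducible HSP70, read 8.62, 8.25 and 8.18, then 7.64, 6.97 and 7.59, with 5.91 to 6.62 in NaCl. Its signal may come in part from the near-identical Hspa1b.

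Constitutive Hspa8 (12.59 to 12.74, then 12.18 to 12.31) and the co-chaperone Bag3 (7.79 to 8.21, then 7.40 to 7.59) did not overlap but differed by less than 0.5. Hspb1, the small heat shock protein HSP27, differed by 0.49. Cryab, another small heat shock protein, was below NaCl (8.09 to 8.53) on arrays 4 to 6 (7.59, 7.22 and 7.32) and overlapped it on arrays 1 to 3 (7.99, 7.71 and 8.13). Under an equal mean of the reference genes 7 of the 19 were counted as higher on arrays 1 to 3.

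Single early-response and NF-kB genes were higher on arrays 1 to 3, while the median of the NF-kB list was near 0. Of 17 NF-kB genes, 2 were counted as higher on arrays 1 to 3 and 0 the other way. In that direction 3 did not overlap (17.6%, against 8.29% of all genes) and 0 in the other. The median was -0.01, which turned to 0.01 to 0.09 under the 4 other scalings. Nfkbia, the inhibitor that NF-kB induces against itself, read 8.96, 8.36 and 8.30 on arrays 1, 2 and 3 and 7.86, 7.63 and 7.79 on arrays 4, 5 and 6. Rel, an NF-kB subunit, read 7.49, 6.82 and 7.12, then 6.36, 6.31 and 6.34, with 5.55 to 5.71 in NaCl. Array 1 was the highest for both.

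Of 35 immediate-early genes, the first to be induced by a stimulus, 2 were counted as higher on arrays 1 to 3 (Csrnp1 and Jun) and 1 on arrays 4 to 6 (Ier3), 7 and 2 did not overlap, and the median was 0.08. Ier3 lay at the limit and was not counted under any of the 4 other scalings. Jun read 9.25, 8.90 and 8.70, then 8.41, 8.38 and 8.50. Ier3 read 9.02, 8.82 and 8.72, then 9.30, 9.71 and 9.04. Atf3, which caerulein raised 4.42 on arrays 1 to 3 and 3.96 on arrays 4 to 6, did not overlap but differed by 0.45. Trib1, a pseudokinase that turns over C/EBP factors, was counted (8.99 to 9.32, then 8.32 to 8.41).

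**Figure D4:**
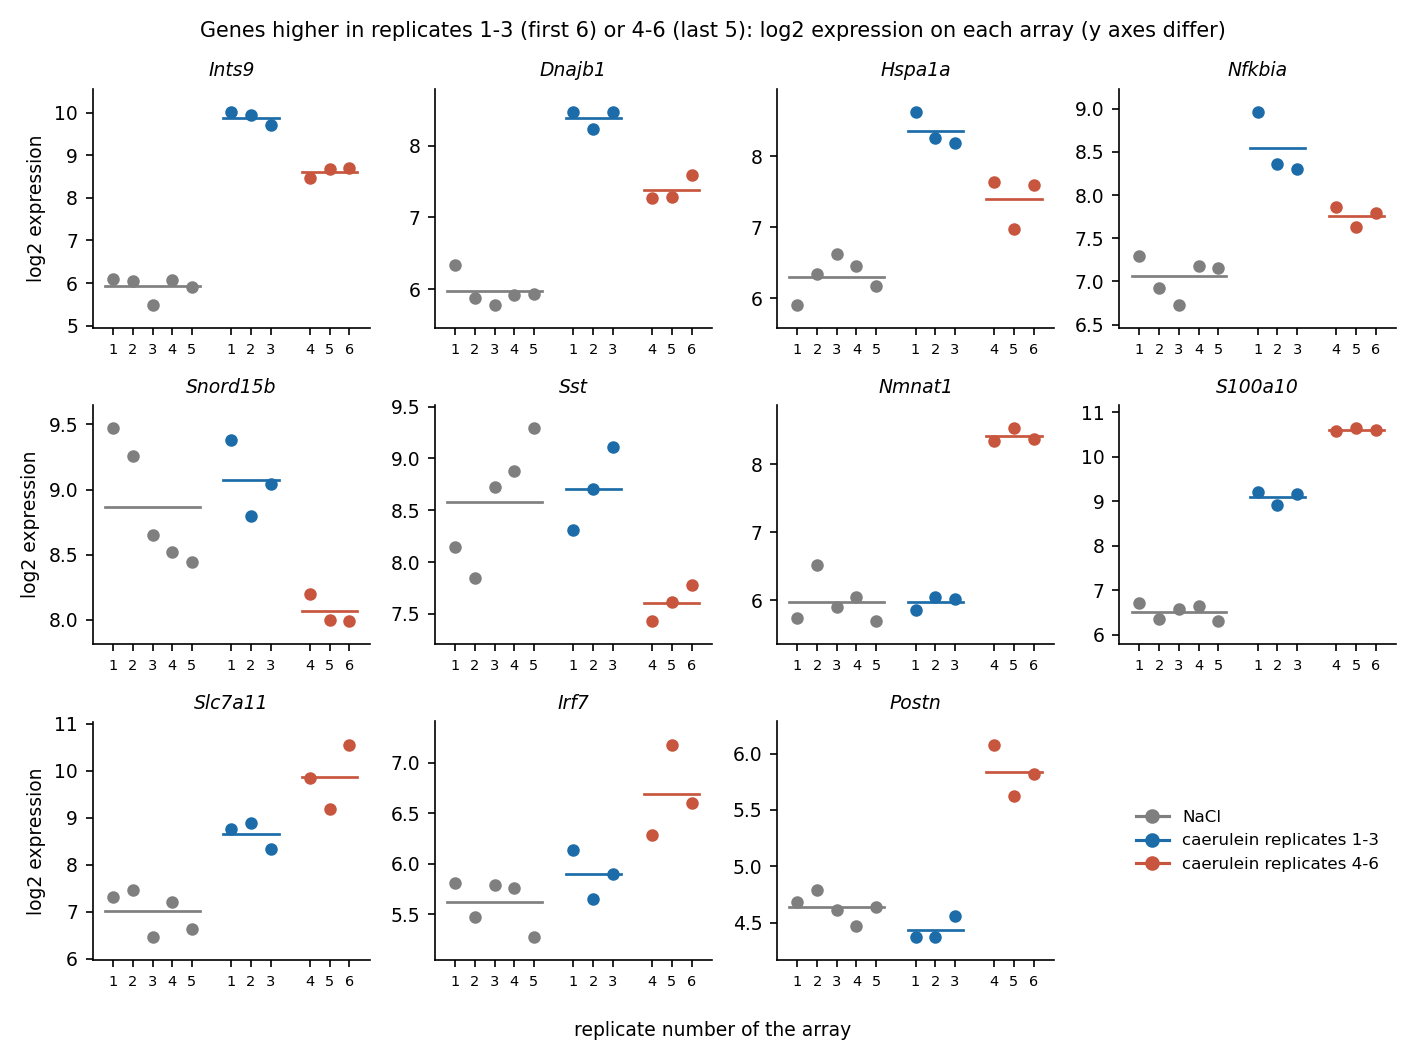
Log2 expression of 11 counted genes on each array (y axes, each with its own range and not from 0), by replicate number (x axis), with lines at the group means: NaCl in grey, caerulein arrays 1 to 3 in blue, 4 to 6 in red. Ints9, Dnajb1, Hspa1a and Nfkbia lie above NaCl in both sets, Nmnat1 and Postn leave the NaCl level on arrays 4 to 6 alone, and Snord15b and Sst lie below it there.

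The largest difference towards arrays 1 to 3 was that of Ints9, a subunit of the Integrator complex that processes small nuclear RNAs. It read 10.01, 9.94 and 9.70 on arrays 1, 2 and 3, 8.47, 8.68 and 8.70 on arrays 4, 5 and 6, and 6.10, 6.04, 5.49, 6.07 and 5.91 in NaCl. Caerulein raised it 15.6-fold in one set and 6.47-fold in the other. Slc39a10, a zinc importer, read 7.85, 7.53 and 8.23, then 6.88, 6.46 and 6.76, with 4.94 to 5.75 in NaCl. Mmp7, a protease of metaplastic epithelium, was led by array 1 (7.58, 6.17 and 6.73, then 5.80, 5.64 and 5.62), and H1f3, a linker histone, was also highest there (6.18, 5.22 and 5.68, then 4.58 to 4.73).

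Pdk4, a kinase that holds back pyruvate oxidation, read 7.72, 7.77 and 7.74 on arrays 1, 2 and 3 and 6.78, 6.81 and 6.73 on arrays 4, 5 and 6, with SDs of 0.02 and 0.04 (n = 3 each). Tle4, a corepressor, read 7.84 to 8.08, then 6.94 to 7.26. Tmem38b, a potassium channel of the endoplasmic reticulum, fell below NaCl (6.82 to 7.64) less on arrays 1 to 3 (6.49 to 6.60) than on arrays 4 to 6 (5.56 to 5.73). Ubald1 (8.44 to 8.70, then 7.64 to 7.83) and the iodide transporter Slc5a5 (7.23 to 7.68, then 6.50 to 6.74) were also among the genes with the largest differences. Sox9, a duct and progenitor factor, read 7.97, 7.76 and 8.30, then 7.20, 7.50 and 7.42, and the EGF receptor ligand Btc, chosen after its values were seen, 8.92, 8.51 and 8.83, then 7.89, 8.27 and 8.15.

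Small nucleolar RNAs, which guide the chemical modification of ribosomal RNA, held the most counted genes of any list on the side of arrays 1 to 3. Of 64 small nucleolar, small nuclear and host RNA genes measured, 13 were counted as higher on arrays 1 to 3. In that direction 25 did not overlap (39.1%, against 8.29% of all genes) and 0 in the other, and the median difference was 0.23. Snord15b read 9.38, 8.80 and 9.04 on arrays 1, 2 and 3 and between 7.99 and 8.20 on arrays 4 to 6. Its NaCl values were 9.47, 9.26, 8.65, 8.52 and 8.44, so NaCl replicates 1 and 2 stood above the other NaCl arrays. Snora16a had the same form (7.70, 7.21 and 7.13, then 6.36, 6.62 and 6.60, with 7.67, 7.37, 7.14, 7.06 and 7.09 in NaCl), as did Snord16a, chosen after its values were seen (NaCl 7.91, 7.49, 7.09, 6.78 and 6.76).

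Relative to NaCl the list median was 0.31, 0.09 and 0.01 on arrays 1, 2 and 3 and 0.00, -0.11 and -0.10 on arrays 4, 5 and 6, and 0.07, 0.06, -0.11, -0.05 and -0.03 on the NaCl arrays. Most of these RNAs were not called for caerulein (11 higher and 5 lower of 64). Snord14e was an exception, above NaCl (5.45 to 5.95) in both sets at 8.48, 8.49 and 7.70 on arrays 1, 2 and 3 and 7.66, 7.44 and 7.47 on arrays 4, 5 and 6. Recovery of small RNA and RNA integrity were not measured in these files, and their part was not tested. Of the 21 genes of the small RNA list with a mean of at least 6, 11 were counted as higher on arrays 1 to 3 and 0 the other way (median 0.53). Dim probes differed in the same direction by less. The 1207 olfactory, vomeronasal and trace amine receptor genes, hardly expressed in pancreas, had a median difference of 0.05, with 1 counted. Of these, 129 did not overlap towards arrays 1 to 3 (10.7%, against 8.29% of all genes) and 25 the other way (2.07%, against 9.4%). That median turned to -0.01 with the quantile step repeated and to -0.00 under cyclic loess.

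Messenger RNAs of the cytosolic ribosome leaned the same way without a counted gene. Of 61 measured, 18 did not overlap with arrays 1 to 3 higher (29.5%, against 8.29% of all genes) and 0 the other way, with a median of 0.12. Subunits of the respiratory chain leaned the other way. Of 76, 14 did not overlap with arrays 4 to 6 higher (18.4%, against 9.4% of all genes) and 2 the reverse. Their median of -0.08 turned to 0.02 with an equal mean of the reference genes. Proteasome subunits had 10 of 39 higher on arrays 4 to 6 without overlap (25.6%, against 9.4% of all genes) and 1 the reverse. The 1 counted gene was Psmd5 (6.35 to 6.43, then 6.82 to 7.26, NaCl 6.24 to 6.55). With an equal mean of the reference genes 5 and 2 proteasome subunits did not overlap, and their median went from -0.11 to -0.01. Of 300 microRNA genes 1 was counted: Mir19a read 4.53, 4.44 and 4.31, then 3.63, 3.90 and 3.65, with 2.65 to 2.90 in NaCl.

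Of 22 islet genes, 19 had the higher mean on arrays 1 to 3. In that direction 5 did not overlap (22.7%, against 8.29% of all genes) and 1 in the other. Somatostatin had the largest difference. Sst read 8.31, 8.70 and 9.11 on arrays 1, 2 and 3 and 7.43, 7.61 and 7.78 on arrays 4, 5 and 6, against 8.14, 7.85, 8.72, 8.88 and 9.29 in NaCl, so arrays 4 to 6 lay below every NaCl array. Scg2, a granin of endocrine granules, was the other counted gene of 22 (5.86, 6.65 and 6.23, then 5.62, 5.60 and 5.67), and the list median was 0.22. The hormones Gcg (10.32, 11.22 and 11.29, then 9.99, 10.24 and 10.76), Ins2 (difference 0.29) and Iapp (0.57) overlapped between the sets. The NaCl arrays ranged from 9.08 to 11.35 for Gcg. The share of islet in each sample was not measured.

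Of 29 digestive enzyme and granule genes 0 were counted, with a median of 0.01, and 3 did not overlap in each direction. This balance turned with the scaling, to 15 against 2 higher on arrays 1 to 3 (median 0.10) with an equal mean of the reference genes and 1 against 14 (median -0.08) under cyclic loess. The largest difference was that of Sycn, a granule membrane protein, with 14.18, 14.15 and 14.06 on arrays 1, 2 and 3 and 13.77, 13.69 and 13.82 on arrays 4, 5 and 6. Of 16 acinar factors and receptors 0 were counted (median -0.02, or 0.07 with an equal mean of the reference genes). Cckar, the cholecystokinin receptor, was 3.92 below NaCl on arrays 1 to 3 and 4.19 below it on arrays 4 to 6, on the log2 scale. Of 21 duct and metaplasia genes 1 was counted each way (Sox9 and Anxa1, median 0.01, or -0.02 with the quantile step repeated). Ribosome biogenesis genes (30 measured, median 0.01) had 0 counted, as had cytokines and chemokines (0 of 32, median -0.01). An equal mean of the reference genes gave 1 counted as higher on arrays 1 to 3 in each, with medians of 0.11 and 0.08. As 1.4% of all genes were counted, nothing is read from 0 in any of these lists.

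Other tissues that a dissected pancreas can carry were looked at through their markers. Adipocyte (0 counted of 20), mesothelium (0 of 13), endothelium (0 of 20), smooth muscle (0 of 15), mast cell (0 of 12), Schwann cell (0 of 8) and erythroid genes (0 of 6) held no counted gene. As 1.4% of all genes were counted, nothing is read from 0 in lists this short. In the adipocyte and endothelium lists 15 and 15 means were higher on arrays 4 to 6, and 5 and 5 on arrays 1 to 3. With an equal mean of the reference genes these were 10 and 9, against 10 and 11. Of 21 intestinal genes 1 was counted, which was Reg3g, and of 16 liver genes 1, Ttr, which islets also make (8.20, 8.18 and 7.95, then 7.08, 7.39 and 7.63). Xist was between 8.37 and 9.13 and Eif2s3y between 2.85 and 3.12 on all 11 arrays, with Xist at 8.95 to 9.13 on arrays 1 to 3 and 8.66 to 8.77 on arrays 4 to 6. Of 18 clock genes 1 was counted, Ciart (5.65, 5.56 and 5.78, then 6.14, 5.98 and 6.48), and the list median was 0.02. Ciart was not counted with an equal mean of the reference genes or the quantile step repeated. In this list 4 genes did not overlap with arrays 1 to 3 higher (22.2%, against 8.29% of all genes) and 1 the other way.

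**Figure D5:**
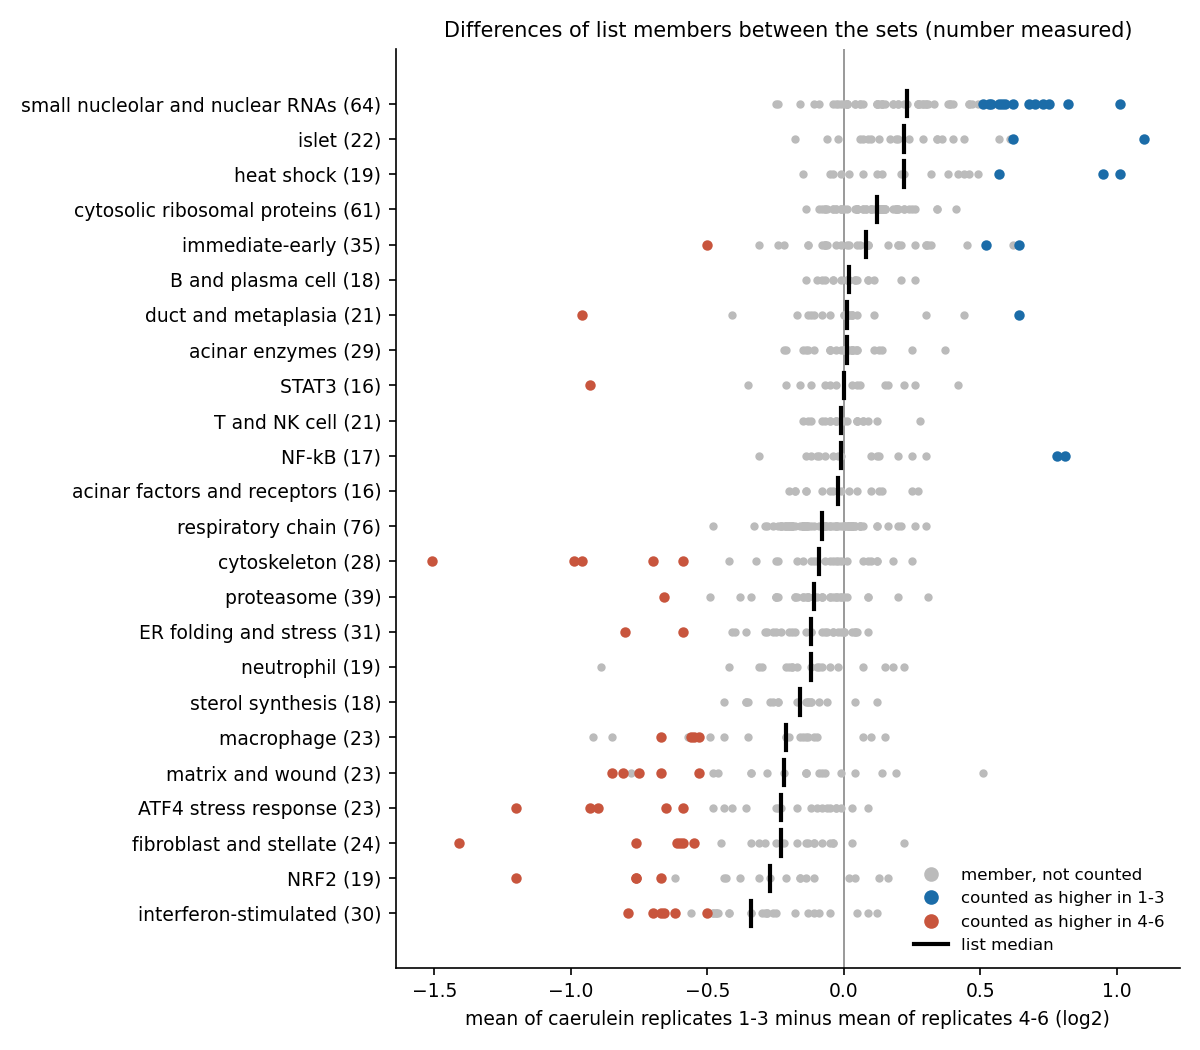
Difference between the means of caerulein arrays 1 to 3 and 4 to 6 (x axis, log2) for each measured member of 24 gene lists (y axis, number measured in brackets), with the list median as a black bar and counted genes in blue or red. The interferon-stimulated, NRF2, fibroblast and ATF4 lists lie to the left, the small RNA, islet and heat shock lists to the right, and the acinar lists near 0 in the deposited values.

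Of the 279 counted genes, 182 passed the test of caerulein against NaCl over all 6 arrays (54.6% of all genes did), 49 higher and 13 lower among the 95 and 100 higher and 20 lower among the 184. As the same arrays enter both, nothing is read from this count. A gene that did not pass could still lie outside the NaCl range in 1 set, as Reg2, Nmnat1 and Sst did.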

How the data were processed

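Whole-pancreas RNA of 5 NaCl and 6 caerulein samples was measured on 1 array each. The deposited values are log2 intensities that the authors made with RMA (background correction, quantile normalisation, probe set summary) using oligo and limma, per the submitters' processing notes. The sources used here give no versions or genome build. Quantile normalisation gives all arrays nearly 1 distribution, so shifts of all genes together are removed.

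Of 35556 probe sets, 21789 had 1 gene symbol, 1621 several and 12146 were not listed. Each of 19938 genes was represented by its brightest probe set (mean of the 11 arrays). Caerulein was compared with NaCl by limma 3.58.1 (R 4.3.3; lmFit, eBayes), with Benjamini-Hochberg adjustment over all probe sets, called under 0.05, after a test on simulated data. Replicates 1 to 3 and 4 to 6 were compared by description in Python 3.11.15 (pandas 2.3.3). Arrays give no counting depth, and their number limits the precision.

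The members and gene lists were chosen with earlier results of these data known. Named genes were the 14 largest non-overlapping differences each way (without predicted and small RNA genes), the 2 largest counted members of each list and the largest against its majority, or the largest of a list with none, and the 2 largest small RNAs each way; others are marked in the text or complete a list's count. Alternatives were other scalings, filters, thresholds, variance priors, a replicate block and leaving out each array.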

Additional observations from a re-analysis of the deposited data

Results flagged for a closer look

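In 251 groups of samples for 97 named genes, 8 had a sample far from the rest of its group, where chance marks about 1 in 20 groups. In NaCl, replicate 1 was high for Dnajb1 (6.33, the others 5.78 to 5.93) and for Bpgm, an erythrocyte enzyme (7.27, the others 6.85 to 6.94). NaCl replicate 2 was low for the ribosome assembly gene Rrs1 (5.84, the others 6.85 to 7.01). NaCl replicate 3 was low for C1qb (5.89, the others 6.19 to 6.24), replicate 4 for Sox9 (7.08, the others 7.30 to 7.37) and replicate 5 for the acute-phase gene Crp (5.18, the others 5.60 to 5.70). Among the caerulein arrays, array 1 was low for Ndufs5, a respiratory chain subunit (5.48, the others 6.31 to 6.54). Array 6 was high for Car3, a carbonic anhydrase of muscle and fat (7.76, the others 4.54 to 5.63).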

How the results depend on the processing

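With arrays shifted to an equal mean of the reference genes, genes called for caerulein went from 10890 to 18479, from 7904 to 18080 for arrays 1 to 3 alone and from 8729 to 18247 for arrays 4 to 6 alone, of the first of which 93.5% were lower against 62.8% as deposited (71.1% at an equal 75th percentile, 54.9% with quantiles repeated, 45.4% under cyclic loess, 48.2% without the dimmer 50% of genes). Also requiring a log2 difference of 1 left 1511. The 279 genes that differed between the sets became 27 at a least difference of 1, 3527 with none, and 48 with a gap of 0.5 between the nearest arrays, a setting chosen after seeing the data. Probe sets with several symbols gave 36 and unlisted ones 487 (320 higher on arrays 1 to 3). Leaving out 1 array gave 9862 to 10446, 5709 to 7554 and 6350 to 8403 called genes, and 291 to 372 between the sets. The rule of no overlap is easier to meet with 1 array fewer, so nothing is read from the rise in this last count. The other scalings put the median difference of all genes between -0.01 and 0.09. A gene selected for a difference of at least 0.5 could then hardly change sign. None of the 279 did, and nothing is read from this. With the reference genes 95 of 95 and 104 of 184 stayed counted. That shift raises arrays 1 to 3 relative to arrays 4 to 6 for every gene, so the first of these counts was fixed in advance. Without array 1, 68 of 95 and 163 of 184 stayed, and without array 6, 87 and 142. A replicate block gave 9227 called genes. Arrays of the same number correlated at -0.0759 to 0.0924 in their deviations, and arrays of different numbers at -0.136 to 0.139. With so few pairs this cannot show whether the numbers pair the samples.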
